A study of Mus musculus with 8 samples.

Results

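MHC class II high macrophages were defined among the CD45+ cells of mouse mammary tumors as cells that combined abundant C1qa, a macrophage complement transcript, with very high RNA for the antigen-presenting class II molecules, and 175 of 9731 kept cells (1.80%) met this definition. A cell was a member when H2-Aa, H2-Ab1, H2-Eb1 and Cd74 together held at least 400 of every 10,000 of its unique molecular identifiers (UMIs, one per captured RNA molecule) and it had at least 5 C1qa UMIs, no Cd209a or Ccr7, at most 1 UMI each of Folr2 and Ctsk, and at most 1 UMI over Cd3d, Cd3e and Cd3g. Members made up 8.50% of the 2059 cells that met every condition except the class II threshold, and the other 1884 are called lower-MHCII macrophages. The tumors grew in the mammary fat pad of female C57BL/6 mice from E0771, a C57BL/6 mammary cancer line (2 mice), or from E0771-Res1 or E0771-Res2 (3 mice each), which are lines raised from E0771 tumors that had relapsed after paclitaxel with anti-PD-1. Each resistant group therefore represents a single relapse line, and the labels name no drug given to these recipients and no age. Tumors were collected on day 18, dissociated enzymatically at 37°C and sorted for CD45, and the cells were tagged, pooled and sequenced by 10x 3′ chemistry. Replicates 1 and 3 stood for E0771. The study had 3 such mice, and the other was not analysed here. Values for all mice are given in the order E0771 replicates 1 and 3, E0771-Res1 replicates 1, 2 and 3, and E0771-Res2 replicates 1, 2 and 3. In that order the matrices held 1227, 644, 2189, 678, 1033, 1952, 1631 and 2076 cells and 9996115, 5036667, 18894504, 5352655, 7932711, 14319569, 10329135 and 12668437 UMIs. Members numbered 34, 14, 63, 7, 33, 11, 5 and 8.

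MHC class II molecules are heterodimers that carry peptides from endocytosed protein to the cell surface, where CD4 T cells read them. The α and β chains (such as H2-Aa and H2-Ab1) assemble on the invariant chain Cd74, cathepsins trim that chain in the endosome, and the H2-DM heterodimer exchanges its remnant for antigenic peptide. Ciita is the main co-activator of class II genes and docks to factors bound at X and Y boxes in their promoters, and interferon gamma is its classical inducer in macrophages. Tumor macrophages are commonly graded by class II, the high end sitting near newly arrived monocytes and dendritic cells and the low end near scavenging and lipid-handling cells.

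The promoters below are shown because H2-Eb1 belongs to the genes that chose the members, whereas H2-DMb1 and H2-DMb2 were not counted by the threshold, and H2-Aa is shown as a selecting gene in which only the Y letters searched for were found. Each line holds the 130 bases before the RefSeq start site on GRCm38.p6, read 5′ to 3′ along the gene, and capitals mark the X box (CTANNAACNNATGATG, the letters that H2-Eb1, H2-DMb1, H2-DMb2 and H2-Ob share there, with N where they differ) and the Y box (GATTGG). H2-Eb1 lies at chr17:34305737-34305866 on the plus strand, H2-DMb1 at chr17:34153061-34153190 (plus), H2-DMb2 at chr17:34145119-34145248 (plus) and H2-Aa at chr17:34287824-34287953 (minus).
H2-Eb1: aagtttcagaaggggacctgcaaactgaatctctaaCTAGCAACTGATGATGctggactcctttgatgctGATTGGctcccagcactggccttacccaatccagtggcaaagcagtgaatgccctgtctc
H2-DMb1: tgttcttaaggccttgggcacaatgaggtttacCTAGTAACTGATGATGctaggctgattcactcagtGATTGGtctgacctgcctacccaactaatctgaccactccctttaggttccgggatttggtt
H2-DMb2: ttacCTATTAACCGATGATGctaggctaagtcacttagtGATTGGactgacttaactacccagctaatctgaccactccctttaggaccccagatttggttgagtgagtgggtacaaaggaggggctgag
H2-Aa: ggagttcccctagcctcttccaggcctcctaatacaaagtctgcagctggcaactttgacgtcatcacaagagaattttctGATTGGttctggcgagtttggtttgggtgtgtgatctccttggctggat
The boxes of H2-Eb1 were 18 bases apart and those of H2-DMb1 and H2-DMb2 19 bases apart. On both strands of 300-base windows (250 before to 50 after the start), the X letters occurred in 5 of 32851 promoters (0.0152%), the Y letters in 5292 (16.1%), and both in 4 (0.0122%), namely H2-DMb1, H2-DMb2, H2-Eb1 and H2-Ob. H2-DMa, which has a pair of RefSeq entries here, held no X letters (one entry neither motif, the other the Y letters alone at -199), and H2-Oa held the Y letters alone at -44. No match says only that these letters are not in the window. The X letters were derived from the genes with both, so their rarity elsewhere is a description of the letters and not of binding.

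Members were chosen by their class II and C1qa RNA, and these selecting genes spanned a wide range. Summed class II RNA in members had a median of 491 per 10,000 UMIs, a lower bound of 400 by construction, a 90th percentile of 655 and a maximum of 1102. C1qa had a median of 36 UMIs per member (5 to 163). The cut fell on a continuous slope: 74 gated cells lay between 350 and 400 per 10,000 and 51 between 400 and 450. Just outside and just inside it, H2-DMb1 stood at 6.83 and 8.62 per 10,000, Ciita at 0.449 and 0.657, and Pf4 at 1.65 and 0.976. Ciita RNA, outside the gate, was found in 46.9% of members against 12.4% of lower-MHCII macrophages. The macrophage marker list gave 37347 counts in members, 12930 of them from the lysozyme gene Lyz2, but its RNA was not particular to gated cells: unthinned, Apoe was found in 97.7% of members and 87.1% of T cells and Cd68 in 98.9% and 69.6%. C1qb, the partner chain of C1qa, was found in 97.7% of members after every cell was thinned to 2000 UMIs, and in 42.8% of T cells so treated (100% and 72.1% unthinned).

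Markers of other cells were sparse in members, in part by selection. The gate set Cd209a and Ccr7, both on dendritic lists, to 0. It also capped Cd3d, Cd3e and Cd3g together at 1 UMI per cell, and these gave 12, 6 and 17 T cell list counts. Summed over all 175 cells, the conventional dendritic cell list gave 87 counts (Kmo 25, Xcr1 23 in 3 cells, Dpp4 18, Zbtb46 at 0, and Cd209a at 0 by the gate), the mature dendritic cell list 121 (Relb 90), the B cell list 149 (Ighm 112), the T cell list 71 (Cd3g 17), the neutrophil list 96 (Csf3r 90, Cxcr2 and Retnlg at 0), the tumor cell list 30 (Cdh1 13, Krt7, Krt18 and Col3a1 at 0) and the erythroid list 9 (Hbb-bs 7). The NK list gave 140 counts, 122 of them Gzma, and stood at 216, 15.6, 26.5, 0, 219, 36.3, 35.3 and 45.6 CPM (counts scaled to a common library size), so that 1 mouse of E0771 and 1 of E0771-Res1 were high. In lower-MHCII macrophages it stood at 490, 139, 59.6, 56.9, 191, 133, 268 and 280 CPM, above members in every mouse but E0771-Res1 replicate 3, and its part in the differences between these sets was not tested. The conventional dendritic cell list stood at 30.8, 156, 24.5, 174, 28.7, 12.1, 424 and 30.4 CPM in members and 21.4, 33.7, 12.3, 15.2, 7.85, 11.9, 17.2 and 16 CPM in lower-MHCII macrophages. It was higher in members of all 8 mice, by most in E0771-Res2 replicate 2, where 1 cell held all 16 Xcr1 counts, and its part in the differences between these sets was not tested. Monocyte markers were abundant, though not particular to members: all 9 were found, with 5078 counts, 2519 of them from Ly6c2. Unthinned, Ly6c2 was found in 91.4% of members and 78.4% of T cells. The list stood at 4405, 5752, 3458, 2079, 2480, 1769, 2455 and 5801 CPM in members. In lower-MHCII macrophages it stood at 3907, 3590, 2288, 3128, 3278, 2816, 3350 and 2596 CPM, so neither set was higher throughout. No cell barcode was shared between matrices, and Scrublet marked 53 kept cells (0.545%) as doublets, none of them members, although 5 members fell in the top 5% of its scores and 2 carried the tag of another mouse. Some 35 members had 1 CD3 UMI.

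The first question was whether this population differed in size between tumors. In E0771 members were 3.24% (95% exact binomial interval 2.25 to 4.50) and 2.54% (1.39 to 4.22) of kept cells. E0771-Res1 tumors had 3.31% (2.55 to 4.22), 1.25% (0.505 to 2.56) and 3.84% (2.66 to 5.35), and E0771-Res2 tumors 0.650% (0.325 to 1.16), 0.364% (0.118 to 0.847) and 0.460% (0.199 to 0.903). Every E0771-Res2 mouse lay below every other mouse, whereas E0771-Res1 enclosed the E0771 values. Within gated macrophages the shares were 17.4% (12.4 to 23.5) and 14.6% (8.21 to 23.3), then 13.1% (10.2 to 16.4), 6.86% (2.80 to 13.6) and 18.6% (13.2 to 25.2), then 2.86% (1.44 to 5.07), 2.02% (0.658 to 4.64) and 2.13% (0.923 to 4.15). These averaged 16% ± 2.02 (SD, n = 2) for E0771, 12.9% ± 5.89 (SD, n = 3) for E0771-Res1 and 2.34% ± 0.461 (SD, n = 3) for E0771-Res2. Against E0771, E0771-Res2 was lower by 2.40 points of kept cells and 13.7 points of gated macrophages, each with a two-sided exact permutation p of 0.1, the smallest that 2 against 3 mice allow (0.2 adjusted over 8 comparisons). Against E0771-Res1 the differences were -2.31 and -10.5 points with the same exact permutation p of 0.1. E0771-Res1 and E0771 differed by -0.0866 points of kept cells (exact permutation p = 1), and by -3.14 points of gated macrophages (exact permutation p = 0.6). Both resistant lines pooled gave -1.24 and -8.41 points (exact permutation p = 0.429 and 0.214, adjusted 0.571 and 0.343, against a smallest possible 0.0357).

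**Figure D1:**
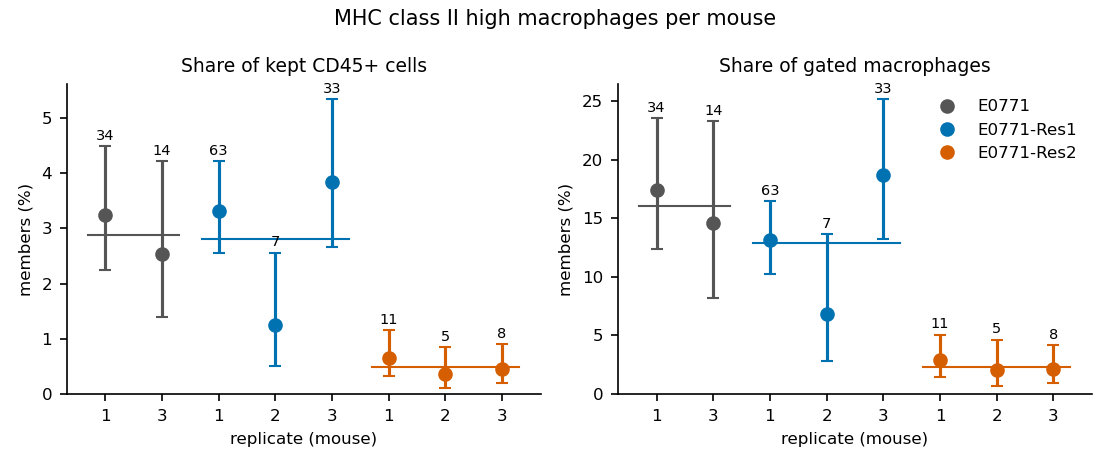
Members per mouse as a percentage of kept cells (left) and of gated macrophages (right); points are mice with exact binomial 95% intervals, horizontal lines are group means, and colors mark the tumor line. The 3 E0771-Res2 mice sit at 0.364% to 0.650% of kept cells, below the 1.25% to 3.84% of the other 5.

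Depth differed along with these shares. The median UMI count of kept cells was 8342.5 and 8234 for the E0771 mice, 8421, 8565 and 7986.5 for E0771-Res1, then 7346.5, 6218 and 6059 for E0771-Res2, so the last group was the shallowest. After thinning each cell to 2000 UMIs, with no cell left out, members were 2.67%, 1.63%, 3.15%, 1.43%, 3.02%, 0.473%, 0.291% and 0.287% of kept cells. The E0771-Res2 mice again held the lowest values, and the E0771-Res1 difference from E0771 turned from -0.0866 to 0.388 points. Intervals cover counting error only.

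The class II sums from which the shares were cut are given next, as a description of the same values. The median per 10,000 UMIs over gated macrophages was 176 and 133 in E0771, then 122, 57.6 and 195 in E0771-Res1, then 27.4, 30.7 and 33.3 in E0771-Res2. E0771-Res2 was again below all other mice, and so was its 90th percentile, at 239, 211 and 242 against 356 to 479 elsewhere. Once past the threshold, members had similar medians across tumors, at 495 and 452, then 491, 540 and 483, then 444, 511 and 488 (a range that the threshold bounds from below). Members supplied 12.2% and 11.1% of all class II UMIs of kept cells in E0771, then 12.5%, 8.89% and 14.4% in E0771-Res1, then 4.17%, 3.78% and 3.58% in E0771-Res2. Most class II RNA of the kept cells thus lay in cells that were not members, and 15.4% to 20.6% lay in the lower-MHCII macrophages.

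**Figure D2:**
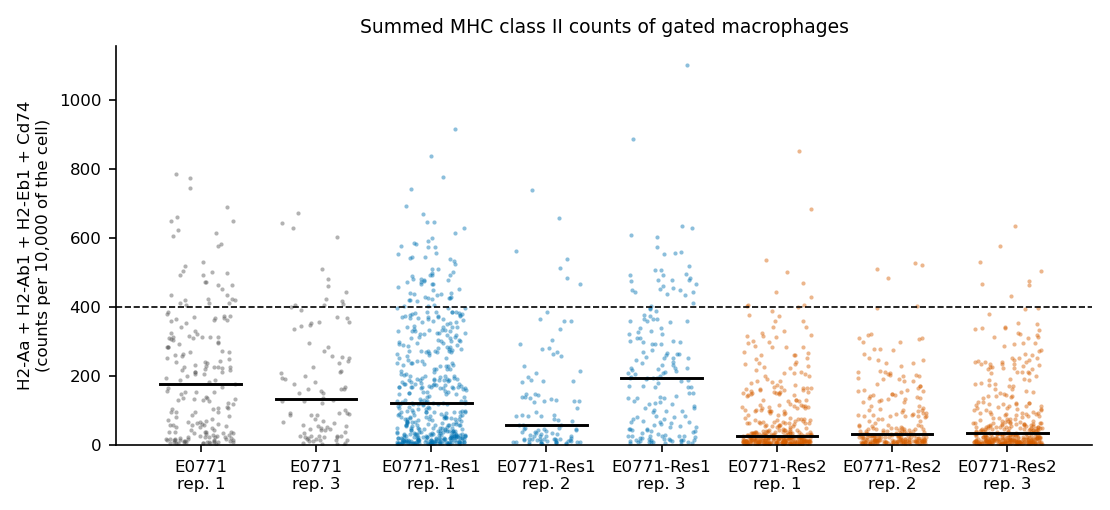
Summed H2-Aa, H2-Ab1, H2-Eb1 and Cd74 counts per 10,000 UMIs of each gated macrophage (points, 2059 cells) by mouse; black bars are medians and the dashed line is the threshold of 400. E0771-Res2 medians are 27.4 to 33.3, and those of the other mice 57.6 to 195.

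Which genes accompanied high class II was asked within each mouse, by summing counts over the members and over the lower-MHCII macrophages of the same tumor and testing the sums with edgeR's quasi-likelihood test and the mouse as a block (5 mice with at least 10 members: both E0771 mice, E0771-Res1 replicates 1 and 3, and E0771-Res2 replicate 1). Of 6912 genes tested, 82 were higher and 104 lower in members at an adjusted p under 0.05 (2.69% called, 1.19% higher and 1.5% lower). With all 8 mice, chosen after seeing the data, 301 of 7437 genes were called (4.05%), 160 of them among the 186. The balance of directions depended on scaling and test: DESeq2 called 62 higher and 35 lower, and edgeR with DESeq2's size factors 106 and 91, whereas thinning gave 7 and 63 and all 8 mice 78 and 223. At a class II threshold of 500 only 3 mice entered (E0771 replicate 1 and E0771-Res1 replicates 1 and 3). For calls lost at that threshold, the higher cut and the missing mice cannot be told apart. The gate counted RNA of the very cells compared, so genes whose RNA travels with class II are not independent of the choice, and in sums per mouse fewer positive cells and less RNA per cell cannot be told apart. Levels are TMM-scaled CPM throughout, read by 3′ tags and thus comparable between sets but not between genes.

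H2-DMb1, H2-DMa and Ciita, all outside the gate, rose. H2-DMb1, the β chain of the peptide exchanger, measured 1251, 1313, 1530, 1323, 1393, 800, 1183 and 744 CPM in members and 484, 389, 423, 335, 465, 265, 262 and 246 CPM in lower-MHCII macrophages. Each of the 8 mice showed the difference and the sets did not overlap (log2 fold change 1.65, SE 0.10, edgeR adjusted p = 1.76e-12). Its partner H2-DMa stood at 762, 742, 1072, 756, 1027, 557, 689 and 592 CPM in members against 385, 360, 389, 344, 396, 241, 263 and 238 CPM. Again no mouse overlapped, with a smaller log2 fold change of 1.25 (SE 0.11, edgeR adjusted p = 3.65e-09). Ciita itself measured 127, 70.3, 83.6, 87.2, 122, 72.7, 106 and 60.7 CPM against 41.2, 35.2, 34.1, 43.0, 29.6, 12.7, 30.5 and 16 CPM. Members were higher in 8 of 8 mice without overlap, by 3.04-fold (log2 1.61, SE 0.21, edgeR adjusted p = 8.72e-06). These 3 calls held in every alternative run for genes.

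Per cell, Ciita was found in 13.1% of members (exact interval 8.52 to 19.1) and 3.13% of lower-MHCII macrophages after thinning to 2000 UMIs. T cells (at least 3 CD3 UMIs), in which class II genes are not normally active in mice, gave 1.92% over 832 cells. Their depth was similar to that of members (median 10274.5 UMIs against 10058). The 458 of them with at most 1 C1qa UMI gave 1.75%. The lower-MHCII share (exact interval 2.39 to 4.02) lay above these T cell values, but its interval overlapped theirs. Unthinned values were 46.9%, 12.4% and 9.38%. H2-DMb1 gave 77.1%, 31.4% and 15.6% in the same order (unthinned 99.4%, 64.7% and 38.7%).

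Across the list for class II presentation beyond the gate, 5 of 14 tested genes rose and 1 fell, with a median log2 fold change of 0.374 against -0.0606 over all genes. The remaining risers were H2-DMb2, a second H2-DM β chain whose reads may be shared with H2-DMb1, and Ifi30, a lysosomal thiol reductase, both named after their values were seen. H2-DMb2 (log2 1.58, edgeR adjusted p = 0.0146) lost its call without E0771-Res1 replicate 1 (adjusted p = 0.18) or replicate 3 (0.15) and at the 500 threshold (0.395). Ifi30 rose by 0.58 on the log2 scale but not after thinning (adjusted p = 0.38), at the 500 threshold (0.077) or without the mouse block (0.058). Lgmn, an asparaginyl endopeptidase of the lysosome, fell by 0.44, a call lost at a class II threshold of 500 (adjusted p = 0.456) and without the mouse block (0.072). Of neighbouring pathways, 0 of 21 class I and peptide-loading genes, 0 of 19 type I interferon genes and 1 of 22 interferon gamma genes were called, with medians of 0.0621, 0.00766 and -0.0509. The class I heavy chain H2-K1, whose reads other class I genes may share, differed by 0.02 (SE 0.09, adjusted p = 0.953), a sign that turned with thinning (-0.11) and with all 8 mice (-0.15).

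The single interferon gamma gene called was Cxcl9, a chemokine that draws CXCR3 T cells. It stood at 1171, 1055, 683, 145, 1468, 3065, 1077 and 75.9 CPM in members and at 682, 460, 452, 305, 561, 182, 260 and 226 CPM in lower-MHCII macrophages. Members were higher in 6 of 8 mice, but very unevenly: 78 of 175 members had any Cxcl9, and in E0771-Res2 replicate 1 a single cell held 99% of it. The log2 fold change was 1.54 (SE 0.26, edgeR adjusted p = 0.000352; DESeq2 0.25). The thinned share of positive cells was 28% in members, 14.6% in lower-MHCII macrophages and 7.81% in T cells (unthinned 44.6%, 27.3% and 18.9%).

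Among 17 costimulatory and checkpoint ligands, 2 rose (median -0.0121). Cd40, the receptor for T cell help, measured 123, 234, 202, 174, 237, 339, 159 and 75.9 CPM against 132, 147, 116, 75.9, 165, 79.5, 84.5 and 79.8 CPM. It was higher in 6 of 8 mice and slightly lower in E0771 replicate 1 and E0771-Res2 replicate 3 (1.66-fold, log2 0.73, SE 0.18, edgeR adjusted p = 0.0166, lost without E0771-Res1 replicate 1 at 0.12 or E0771-Res2 replicate 1 at 0.08). Cd86, the CD28 ligand, rose by 0.53 (edgeR adjusted p = 0.0162), a call lost without E0771 replicate 1 (0.21) or E0771-Res1 replicate 1 (0.11). Both calls were also lost at a class II threshold of 500, after thinning (adjusted p = 0.153 for Cd40 and 0.599 for Cd86) and without the mouse block (0.119 and 0.059), and Cd40 with DESeq2 (0.091).

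Genes of tissue-resident, scavenging and lipid-handling macrophages were among those that fell. In the resident and scavenger list 6 of 13 genes fell and 1 rose (median -0.704), and in the lipid-associated list 8 of 20 fell and 2 rose (median -0.538). Pf4, a platelet-factor chemokine made by resident macrophages, measured 53.9, 70.3, 283, 43.6, 68.2, 279, 70.6 and 15.2 CPM in members and 225, 221, 851, 1113, 508, 593, 848 and 525 CPM in lower-MHCII macrophages. It was lower in every mouse, by 3.49-fold (log2 -1.81, SE 0.17, edgeR adjusted p = 1.66e-08). Trem2, a lipid receptor, measured 108, 93.8, 143, 58.1, 133, 182, 0 and 45.6 CPM against 156, 144, 280, 305, 324, 392, 303 and 308 CPM. It too was lower in every mouse (1.91-fold, log2 -0.94, SE 0.14, edgeR adjusted p = 7.9e-05), most narrowly in E0771. In thinned cells Trem2 was found in 10.9% of members (exact interval 6.66 to 16.4) and 28.6% of lower-MHCII macrophages, against 10.2% of all 832 T cells and 3.49% (2.01 to 5.61) of the 458 with at most 1 C1qa UMI. Pf4 was found in 13.7% of members (8.99 to 19.7) and 30.2% of lower-MHCII macrophages, against 12.3% and 6.11% (4.10 to 8.71) of those T cells. Members were thus level with all T cells but above those low in C1qa, whose median depth was 7955.5 UMIs (unthinned 38.3% and 35.4% in members, 58.3% and 52.4% in lower-MHCII macrophages, 31.7% and 31.5% in all T cells, 16.4% and 17.7% in those low in C1qa). The Trem2 call did not hold at the 500 threshold, and neither did it hold without the mouse block (adjusted p = 0.087), as for Pf4 (0.076).

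Ctsd and Hmox1 fell in every mouse. Ctsd, the aspartic protease cathepsin D, measured 601, 391, 485, 349, 488, 715, 389 and 501 CPM in members and 897, 996, 876, 1237, 913, 1453, 1297 and 1341 CPM in lower-MHCII macrophages. The sets did not overlap (1.85-fold lower, edgeR adjusted p = 2.97e-06), and the call held in every alternative run for genes. The gene is named after its values were seen. Hmox1, heme oxygenase, stood at 173, 109, 118, 58.1, 89.7, 121, 70.6 and 137 CPM against 210, 447, 437, 1347, 421, 294, 589 and 373 CPM. Here E0771 replicate 1 showed the smallest gap and E0771-Res1 replicate 2 the widest (2.90-fold lower, edgeR adjusted p = 2.38e-06; 0.093 at the 500 threshold). Erythroid RNA differed between the sets mainly in E0771 replicate 1, where it stood at 3.85 CPM in members and 224 CPM in lower-MHCII macrophages. In E0771-Res1 replicate 1 members were the higher set (14.3 against 9.74 CPM), and its part in the Hmox1 difference was not tested. Spp1, or osteopontin, fell by 1.23 and Igf1 by 1.88 on the log2 scale, both lost at the 500 threshold (adjusted p = 0.744 and 0.083) and without the mouse block (0.128 and 0.239). Thinned Spp1 shares were 10.9% in members, 12.1% in lower-MHCII macrophages and 11.4% in T cells, all at background (unthinned 28.6%, 26.1% and 27.2%). Mrc1, the mannose receptor, fell by 0.70 (edgeR adjusted p = 0.00461; 0.13 without E0771-Res1 replicate 1, 0.427 without the mouse block, 0.121 with DESeq2 and 0.102 at the 500 threshold).

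Of 19 macrophage identity genes 5 fell and 1, Lyz2, rose (median -0.0706), Lyz2 losing its call after thinning (adjusted p = 0.397), at the 500 threshold (0.257), with all 8 mice (0.146), without E0771-Res1 replicate 1 (0.077) and without the mouse block (0.314). Maf, a transcription factor of mature macrophages, measured 254, 203, 330, 436, 108, 145, 124 and 137 CPM in members against 455, 366, 547, 545, 423, 652, 672 and 603 CPM. It was lower in 8 of 8 mice and held in every alternative run for genes (2.20-fold lower, log2 -1.14, SE 0.15, edgeR adjusted p = 9.02e-06). The M-CSF receptor Csf1r differed by 0.22 (SE 0.12, adjusted p = 0.47). Mertk, an efferocytosis kinase, fell by 1.49 (adjusted p = 0.0102; 0.051 without E0771 replicate 1, 0.053 without E0771-Res1 replicate 1, 0.054 without its replicate 3, 0.0915 with DESeq2 and 0.564 at the 500 threshold). The F4/80 gene Adgre1 fell by 0.54 (adjusted p = 0.0273), with its call lost without E0771 replicate 3 (0.15), E0771-Res1 replicate 1 (0.13) or E0771-Res2 replicate 1 (0.089), with DESeq2 (0.189), at the 500 threshold (0.304), after thinning (0.169), without the highest Scrublet scores (0.054) and without the mouse block (0.139). C1qc, which pairs with C1qa and C1qb, fell by 0.41 (adjusted p = 0.0107; lost without E0771 replicate 3 at 0.058, E0771-Res1 replicate 1 at 0.062 or E0771-Res2 replicate 1 at 0.066, with DESeq2 at 0.119, at the 500 threshold at 0.885 and without the mouse block at 0.096), while C1qb differed by -0.23 (SE 0.09, adjusted p = 0.261), a difference that became 0.05 at the 500 threshold.

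Chemokines and cytokines split. The monocyte attractants Ccl7 and Ccl2 fell, together with Pf4 and Ccl12, among 14 chemokines of which 2 rose (median -0.262). The Ccl12 call was lost at the 500 threshold (edgeR adjusted p = 0.114) and without the mouse block (0.617). Ccl7 measured 327, 328, 514, 247, 352, 48.5, 53.0 and 243 CPM in members and 661, 769, 1332, 1232, 962, 622, 1119 and 725 CPM in lower-MHCII macrophages. There was no overlap (2.66-fold lower, log2 -1.41, SE 0.14, edgeR adjusted p = 6.49e-08), and Ccl7 and Ccl2 (1.90-fold lower, adjusted p = 3.05e-06) held in every alternative run for genes, though these neighbouring genes are similar in sequence and reads may be misassigned among them. Il1b, the inflammatory cytokine, was higher in members of every mouse, with 2403, 2415, 3100, 3227, 2850, 2823, 2773 and 1701 CPM against 2344, 2004, 1632, 2216, 1945, 1225, 1198 and 1132 CPM. The gap was slight in E0771 replicate 1 and the rise 1.53-fold (edgeR adjusted p = 0.00196), not held at the 500 threshold, after thinning or without the block. Il1r2, its decoy receptor, stood at 169, 188, 95.8, 87.2, 226, 133, 0 and 30.4 CPM against 54.9, 85.8, 43.8, 78.4, 49.7, 24.6, 26.6 and 23.9 CPM, higher in 7 of 8 mice (3.07-fold, log2 1.62, SE 0.18, edgeR adjusted p = 6.47e-07; 0.07 after thinning).

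Monocyte genes gave no common direction, with 3 of 18 higher and 5 lower (median -0.215). Ccr2, the receptor that brings monocytes into tissue, measured 424, 477, 461, 305, 485, 327, 424 and 258 CPM in members and 320, 260, 302, 391, 358, 216, 241 and 176 CPM in lower-MHCII macrophages. It was higher in 7 of 8 mice (log2 0.58, SE 0.11, edgeR adjusted p = 0.00173), and lost its call after thinning and at the 500 threshold. Ly6c2 differed by 0.33 (SE 0.15, adjusted p = 0.339). The fibronectin gene Fn1 fell by 0.99 (adjusted p = 0.033), a call lost with DESeq2 (0.464), at the 500 threshold (0.378), without the highest Scrublet scores (0.067), without the mouse block (0.624) and without E0771 replicate 1 (0.09), E0771-Res1 replicate 1 (0.49) or its replicate 3 (0.084). In thinned cells Ccr2 was found in 41.7% of members, 26.9% of lower-MHCII macrophages and 23.4% of T cells, which can express it themselves (unthinned 71.4%, 53.8% and 51.0%).

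The most altered single genes of this comparison included Mgl2 and Spint1. Mgl2, a galactose-binding lectin of dendritic cells and some macrophages, was 5.81-fold higher (log2 2.54, SE 0.24, edgeR adjusted p = 1.66e-08), with 204, 7.81, 281, 320, 208, 12.1, 530 and 91.1 CPM against 8.39, 3.06, 53.9, 16.4, 58.4, 4.92, 25.0 and 9.98 CPM. It came from 34 of 175 members, 1 cell held 98.1% of it in E0771 replicate 1 and all of it in E0771-Res2 replicate 2, and the call was lost at the 500 threshold (adjusted p = 0.33). Clec10a is a near copy. Spint1, a membrane protease inhibitor, stood at 84.7, 62.5, 99.9, 43.6, 93.3, 121, 53.0 and 15.2 CPM against 16.8, 19.9, 41.8, 34.2, 19.2, 10.2, 7.83 and 7.98 CPM. Every mouse showed the rise (3.90-fold, edgeR adjusted p = 8.72e-06; 0.057 at the 500 threshold). Proliferation genes were scarce: none of 17 rose and 5 fell (median -0.454), and the PCNA-associated factor Pclaf gave 5 counts in all members. The Pclaf difference was -3.81 (SE 0.51, edgeR adjusted p = 9.02e-06), and -4.48 to -2.21 leaving out each mouse. Its call was lost at the 500 threshold (0.0596). That of Birc5, a mitotic survivin, was -2.01 (adjusted p = 0.00403) but -0.82 (0.51) without E0771-Res1 replicate 1. Birc5 was not called with DESeq2 (0.267), at the 500 threshold (0.073) or without the mouse block (0.229). None of 18 hypoxia genes was called (median 0.0106), and of 20 dissociation-stress genes 2 were higher and 1 lower (median 0.0173).

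**Figure D3:**
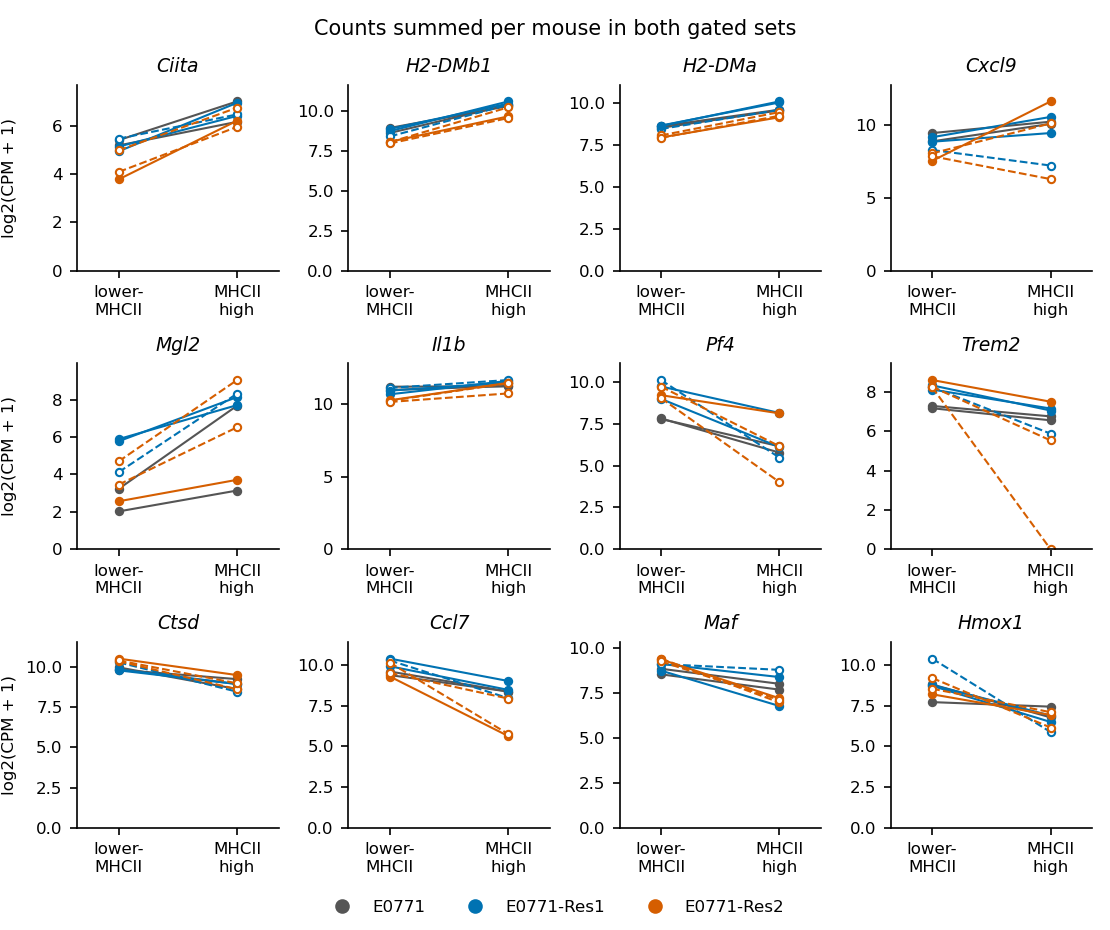
Counts summed per mouse as log2(CPM + 1) in lower-MHCII macrophages (left of each panel) and members (right); lines join the sets of one mouse, colors mark the tumor line, and open symbols with dashed lines are mice with under 10 members, which did not enter the 5-mouse fit. Ciita, H2-DMb1 and H2-DMa rise and Pf4, Trem2, Ctsd, Ccl7, Maf and Hmox1 fall in all 8 mice; Cxcl9 rises in 6.

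Against Folr2+ macrophages, 220 C1qa cells with at least 2 UMIs of the folate receptor Folr2 and any class II level, members had 4 of 10 class II genes beyond the gate higher (H2-DMb1, H2-DMa, Ciita and Ifi30) and 1, Lgmn, lower (median 0.394). In 3 mice with at least 10 cells of each kind (replicate 1 of each line), 154 of 4692 genes were higher and 97 lower (5.35% called, 3.28% higher and 2.07% lower). All 8 mice gave 446 of 4202 (10.6%), with 215 of the 251 among them and the balance turned to 191 higher and 255 lower. Folr2 cut these sets in opposite directions and class II cut the members. Genes whose RNA travels with either are therefore not independent of the choice and are given as a description. The median over all genes was 0.0346 in the 3-mouse fit. Its count of 251 calls fell to 84 with DESeq2 and 22 after thinning. Leaving out a mouse gave 55 (E0771-Res1 replicate 1), 87 (E0771-Res2 replicate 1) or 299 (E0771 replicate 1). H2-DMb1 was 6.92-fold higher (log2 2.79, SE 0.19, edgeR adjusted p = 1.9e-07), its Folr2+ levels being 220, 171, 203, 219, 165, 136, 154 and 81.6 CPM, each below any member value given above. Ciita measured 35.5, 62.3, 12.5, 16.9, 49.5, 6.64, 0 and 18.5 CPM in Folr2+ cells. Its log2 difference was 2.64 (SE 0.38, edgeR adjusted p = 0.00036; 0.053 without E0771-Res1 replicate 1), with all 8 mice in the same direction and 2.27% of thinned Folr2+ cells positive (8.64% unthinned, at a median of 13379 UMIs).

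Of 13 monocyte genes 9 rose and none fell in members relative to Folr2+ macrophages (median 1.44). F10, coagulation factor X, stood at 104, 281, 192, 72.7, 215, 133, 106 and 75.9 CPM against 21.3, 15.6, 22.9, 25.3, 33.0, 13.3, 72.6 and 59.3 CPM. Members were higher in each mouse, least so in E0771-Res2 replicates 2 and 3 (log2 3.07, SE 0.31, edgeR adjusted p = 1.22e-05). Ly6c2, the monocyte surface antigen, measured 1937, 3321, 1891, 1265, 983, 957, 830 and 2673 CPM against 1241, 1355, 191, 646, 725, 392, 327 and 979 CPM. It rose by 1.87 (edgeR adjusted p = 0.00311), lost without E0771-Res1 replicate 1 (0.058) or E0771-Res2 replicate 1 (0.14), with DESeq2 (0.351), after thinning (0.363) and without the mouse block (0.08). Ccr2 rose by 1.44 (adjusted p = 0.00108; 0.096 and 0.058 without the same mice, 0.097 after thinning).

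Inflammatory genes followed the monocyte genes, 6 of 17 rising and none falling (median 0.603). Il1b was 5.01-fold higher in members (log2 2.32, SE 0.20, edgeR adjusted p = 2.48e-06). Folr2+ cells held 802, 1542, 596, 996, 1022, 435, 558 and 593 CPM, all under the lowest member value of 1701 CPM. Ptgs2, the inducible cyclooxygenase, measured 104, 31.3, 192, 72.7, 165, 158, 159 and 30.4 CPM against 35.5, 15.6, 30.2, 29.5, 181, 19.9, 36.3 and 7.42 CPM. It was higher in every mouse but E0771-Res1 replicate 3 (log2 2.62, SE 0.30, edgeR adjusted p = 5.14e-05). Ly6i, a Ly6 family gene with close copies, was 20.8-fold and Il1r2 12.1-fold higher. For Ly6i the log2 difference ran from 4.02 to 7.84 when a mouse was left out.

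Scavenger genes went the other way, 8 of 14 resident genes falling and 1 rising (median -2.06). Folr2 chose the sets, so falls in genes that travel with it are a description of that choice. Pf4 stood at 2149, 234, 3242, 1979, 923, 1742, 3121 and 2470 CPM in Folr2+ cells. It was 12.6-fold lower in members (log2 -3.65, SE 0.31, edgeR adjusted p = 2.48e-06), and the Folr2+ value of E0771 replicate 3 was the exception in falling within the members' range. Mrc1 was 4.96-fold lower, Trem2 4.34-fold lower and the Fc receptor-like scavenger gene Fcrls 36.2-fold lower. Gas6, the bridging ligand of Mertk and Axl, gave 6 counts in all members against 78.0 to 149 CPM in the Folr2+ cells of every mouse (log2 -3.86, SE 0.50, edgeR adjusted p = 0.000153). This Gas6 difference ran from -4.74 to -2.48 when a mouse was left out. Complement genes split, Itgax and Cfb rising while C3ar1, C1qc and C1qb fell. The C1qc call was lost after thinning (edgeR adjusted p = 0.259) and without E0771-Res2 replicate 1 (0.053). The C1qb call (-0.58) was lost without E0771-Res1 replicate 1 (0.12) or E0771-Res2 replicate 1 (0.14), with DESeq2 (0.284), at the 500 threshold (0.448), after thinning (0.693) and without the mouse block (0.097).

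The comparison with Cd209a+ dendritic cells set members beside cells of equal class II threshold. There were 50 such cells (class II of at least 400 per 10,000, at least 2 Cd209a UMIs and at most 1 C1qa UMI), 3 to 9 per mouse, so all 8 mice entered with at least 3 cells. Of 1680 genes, 250 were higher and 94 lower in members (20.5% called, 14.9% higher and 5.6% lower). With DESeq2's size factors the split became 201 and 164, and the median of all genes moved from 0.162 to -0.006. C1q absence defined the dendritic set, so that C1qb (36.8-fold higher, edgeR adjusted p = 7.34e-11) and C1qc (47.6-fold) follow from the selection and are given as a description.

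Macrophage genes outside the gate also differed between the sets. C1qa and Cd209a cut the sets in opposite directions, so macrophage and dendritic genes that travel with them are not independent of the choice. Of 17 identity genes 13 rose and none fell (median 1.51), and of 16 lipid-associated genes 11 rose and none fell (median 1.6). Csf1r measured 420, 258, 410, 262, 441, 254, 212 and 243 CPM in members and 75.6, 78.2, 149, 115, 176, 94.2, 106 and 125 CPM in Cd209a+ cells. The sets did not overlap (2.76-fold, log2 1.47, SE 0.22, edgeR adjusted p = 0.000124). Cfb, complement factor B, stood at 481, 289, 471, 378, 284, 303, 247 and 167 CPM against 15.1, 26.1, 10.7, 28.8, 48.0, 37.7, 15.2 and 24.9 CPM. It too was without overlap (13.3-fold, edgeR adjusted p = 3.46e-07). Lower in members were Klrd1, the CD94 receptor chain, by 37.4-fold, the lectin Clec10a by 13.3-fold and Ifitm6, an interferon-induced membrane gene with close copies, by 15-fold. Kmo, a tryptophan-pathway enzyme on the dendritic list, was lower in 7 of 8 mice (log2 -2.61, adjusted p = 0.00261).

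Class II genes did not share one direction here: 2 of 9 rose and 2 fell (median -0.317). Ciita measured 182, 287, 95.9, 57.7, 63.9, 18.8, 106 and 174 CPM in Cd209a+ cells. Members were higher in 3 of 8 mice, and the log2 difference was -0.30 (SE 0.37, adjusted p = 0.618), too imprecise to call the sets alike. H2-DMb2 stood at 15.4, 46.9, 36.7, 29.1, 43.1, 12.1, 0 and 0 CPM in members against 151, 78.2, 117, 57.7, 95.9, 207, 396 and 49.9 CPM, lower in every mouse (4.86-fold, log2 -2.28, SE 0.50, edgeR adjusted p = 0.00298). H2-DMa fell by 0.51 (edgeR adjusted p = 0.0327), a call lost when any one of 7 mice was left out (0.05 to 0.18). That call was also lost with no gene filter (0.144), at the 500 threshold (0.237) and after thinning (0.415). Ctss, the cathepsin that trims the invariant chain, was higher in members, with 4937, 3806, 4946, 3678, 4372, 5876, 2526 and 4404 CPM against 2163, 2059, 1555, 1731, 1902, 1696, 1612 and 2518 CPM. The lowest member value, of E0771-Res2 replicate 2, only just exceeded the highest dendritic one (2.26-fold, edgeR adjusted p = 8.35e-05). Cxcl9 was 6.71-fold higher in members, in 7 of 8 mice, and Cxcl10, another CXCR3 ligand, lower in 6 of 8 (log2 -1.61, edgeR adjusted p = 0.00604). At the 500 threshold the Cxcl10 difference was -0.919 and its call was lost (edgeR adjusted p = 0.456).

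**Figure D4:**
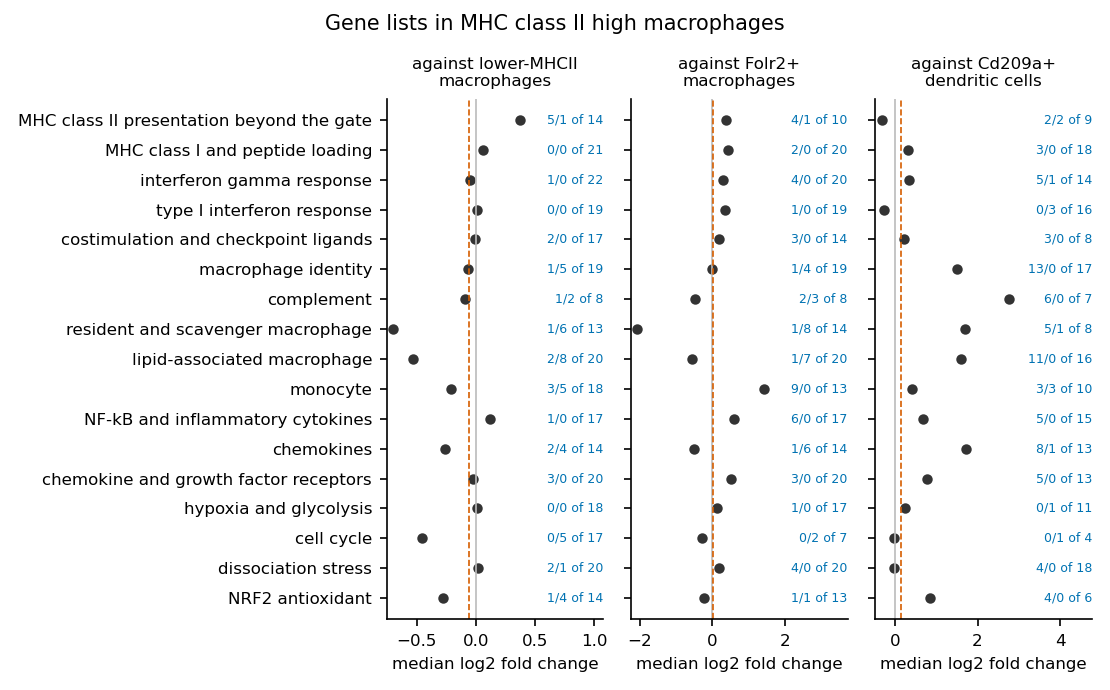
Median log2 fold change of each gene list (points) in members against lower-MHCII macrophages, Folr2+ macrophages and Cd209a+ dendritic cells; blue text gives genes higher/lower of genes tested, gray lines mark 0 and dashed orange lines the median of all genes. Resident and scavenger genes have medians of -0.704, -2.06 and 1.69, and class II genes beyond the gate 0.374, 0.394 and -0.317.

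Finally, members were compared between tumors. All of these contrasts share the same 2 E0771 mice or the same fit, and E0771-Res2 entered with 1 mouse of 11 members, whose spread is assumed to match that of the others. E0771-Res1 against E0771 gave 13 genes higher and 1 lower of 5231 (0.268% called), and all 8 mice gave 2 of 2118 (0.0944%). Lpl, lipoprotein lipase, measured 73.2 and 39.1 CPM in E0771, then 589, 291 and 427 in E0771-Res1, then 218, 35.3 and 273 in E0771-Res2. It was high in each E0771-Res1 mouse and mixed in E0771-Res2 (E0771-Res1 against E0771 8.48-fold, log2 3.08, SE 0.31, edgeR adjusted p = 1e-05, all mice 2.92, 0.0185). Ccl12, a CCR2 ligand, measured 239 and 274 CPM, then 921, 770 and 948, then 170, 106 and 30.4. E0771-Res1 stood above the other 2 lines without overlap (3.74-fold over E0771, edgeR adjusted p = 1.79e-05, all mice 0.019). Lpl and Ccl12 were the 2 genes called with all mice.

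Mmp12, macrophage elastase, stood at 61.6 and 109 CPM, then 495, 131 and 485, then 533, 53.0 and 15.2, so the mice outside the 5-mouse fit were low or intermediate. It was called in E0771-Res1 (log2 2.65, SE 0.28, edgeR adjusted p = 1.39e-05), not with all mice (2.36, 0.77), and 1 cell held 61% of it in E0771-Res2 replicate 1. Ccl5 (1.45, adjusted p = 0.00248) lost its call without E0771 replicate 3 (0.11), and Plac8, a monocyte gene, fell by 0.91 (0.0227), lost without the same mouse (0.12) or E0771-Res1 replicate 3 (0.094).

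E0771-Res2 against E0771 gave 11 genes higher and 2 lower of 5231 (0.249% called), and with all 8 mice edgeR called 0 of 2118 (0% called, 153 genes at an unadjusted p under 0.05, and 7 genes by DESeq2 in the 5-mouse set). Gpnmb, a lysosomal glycoprotein of lipid-laden macrophages, measured 30.8 and 0 CPM, then 77.4, 0 and 50.2, then 400, 35.3 and 152. It was highest in the 1 mouse that entered (log2 4.35, and 3.77 to 9.61 when another mouse was left out), where 1 cell held 58%. With all mice it was 3.42 (edgeR adjusted p = 0.355). Plac8 stood at 1629 and 1743 CPM, then 903, 407 and 858, then 376, 901 and 2688, the 3 E0771-Res2 mice spanning all others (-2.07, adjusted p = 0.000458, all mice -0.31, 0.93). Cxcl9 (1.54, adjusted p = 0.0197) rested on the single cell above, and lost its call without E0771 replicate 1 (0.058) or 3 (0.21). Both resistant lines against E0771 likewise gave 11 higher and 2 lower (0.249% called) and none with all mice (edgeR, 0% called, 112 at an unadjusted p under 0.05).

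Between the resistant lines, E0771-Res2 had 4 genes higher and 4 lower (0.153% called), and all 8 mice called 2 (0.0944%), both lower. These were Ccl12 (5.23-fold lower, log2 -2.39, SE 0.35, edgeR adjusted p = 0.0046, all mice -3.00, 0.000382) and Cxcl10. Cxcl10 measured 932 and 891 CPM in E0771, then 1066, 1802 and 2121 in E0771-Res1, then 412, 336 and 395 in E0771-Res2. The 3 lines did not overlap (-1.86, edgeR adjusted p = 0.0375, all mice -2.05, 0.00275), although the 5-mouse call was lost without E0771 replicate 3 (0.14) or E0771-Res1 replicate 3 (0.054). Cd4 (218, 177 and 30.4 CPM in E0771-Res2 members against at most 23.1 elsewhere), a coreceptor that some myeloid cells carry, was higher by 4.27 on the log2 scale. That difference ran from 3.62 to 8.43 when a mouse was left out, and with all mice it was not called (edgeR adjusted p = 0.224).

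Class II genes outside the gate were called in members of neither resistant line. Members passed the same class II threshold in every tumor, so genes whose RNA travels with class II were held alike by the choice. Few genes of any kind were called, so the absence of calls does not show that these genes were unchanged. The sums over gated or lower-MHCII macrophages below drew on all 8 mice, whereas members of E0771-Res2 came from 1 mouse. Ciita differed by -0.07 (SE 0.34, adjusted p = 0.996) in E0771-Res1 and by -0.45 (SE 0.64, adjusted p = 0.875) in E0771-Res2, and the list medians were 0.212 and -0.452 over 11 genes, with 0 called, against 0.055 and -0.124 over all genes. When all gated macrophages were summed, a choice made after seeing the data, E0771-Res2 against E0771 called 176 of 8850 genes (1.99%, 97 lower, 1.1%), and 3 of 13 class II genes fell, Ciita by 1.29, H2-DMb1 by 1.05 and H2-DMa by 0.76 on the log2 scale. With them fell 7 of 21 class I genes (median -0.375) and 10 of 22 interferon gamma genes (median -0.662), against a median of 0.0252 over all genes, while 8 of 22 lipid-associated genes rose. In lower-MHCII macrophages alone, a set also taken after seeing the data, the same contrast called 112 of 8618 genes (1.3%, with 63 lower, 0.731%). H2-DMb1 and H2-DMa were the 2 of 12 class II genes that fell there, together with 2 of 21 class I genes (median -0.390) and 8 of 22 interferon gamma genes (median -0.687), against 0.0182 over all genes.

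**Figure D5:**
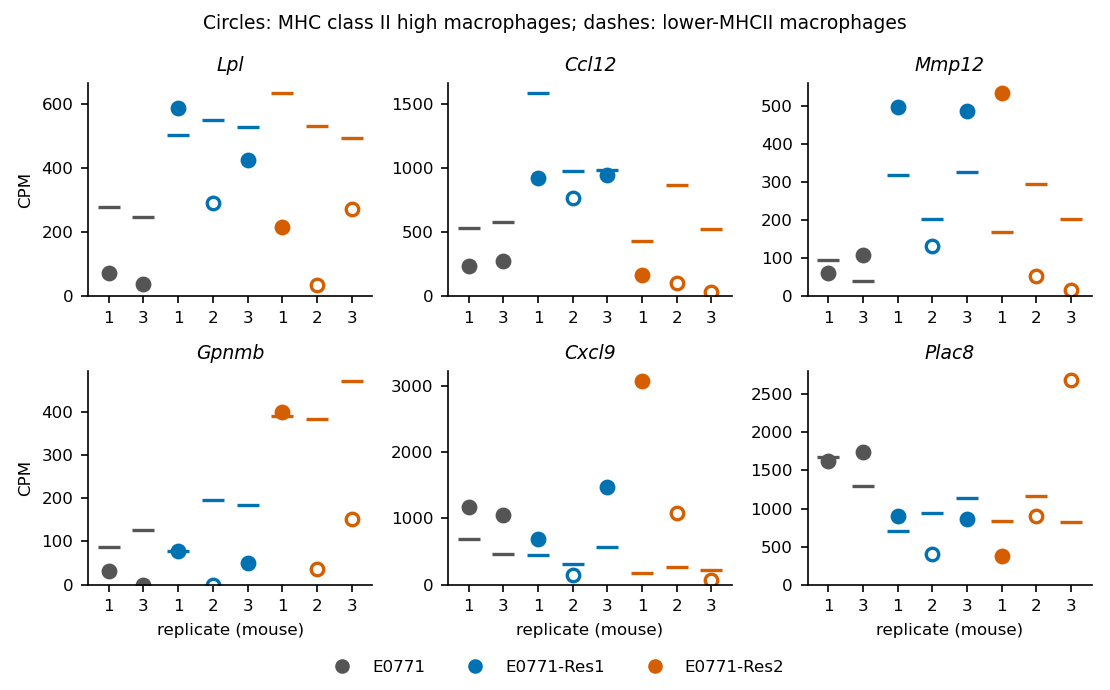
CPM per mouse for 6 genes in members (circles) and lower-MHCII macrophages (dashes); filled circles are mice with at least 10 members, open circles those with fewer, and colors mark the tumor line. Lpl and Ccl12 are high in all 3 E0771-Res1 mice, whereas Mmp12, Gpnmb, Cxcl9 and Plac8 in E0771-Res2 differ widely between its mice.

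Whether these tumor differences were particular to members was tested as an interaction with the lower-MHCII macrophages. For E0771-Res2, 16 of 7655 genes differed (0.209% called), and for E0771-Res1 8 did (0.105%). Lpl was one of them: E0771-Res1 exceeded E0771 more in members than in lower-MHCII macrophages, where it measured 281 and 248 CPM against 503, 550 and 529, by 2.13 on the log2 scale (SE 0.32, edgeR adjusted p = 0.000433, all mice 1.91, 0.0161). DESeq2 gave no call for the E0771-Res1 interaction (48 genes at an unadjusted p under 0.05).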

How the data were processed

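CD45+ cells of 8 tumors were profiled by single-cell RNA-seq. The deposited matrices hold raw counts, UMIs per gene and cell for 32285 genes and 9 tags; the submitters' processing notes name Cell Ranger 6.1.2, mm10 and Seurat, and the authors split the pooled library by tag. No cell annotation was used. Cells with 500 to 6000 genes, under 10% mitochondrial UMIs and at least 2000 UMIs were kept. Members were gated as described above, and the 12 gate genes were left out of tests. The members, comparison sets and gene lists (17 pathway and 11 marker lists, 373 genes, 1 absent from the files) were chosen with earlier results of these data known.

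Counts were summed per mouse and set where at least 10 cells were present, and at least 3 for Cd209a+ dendritic cells because no mouse had 10. They were tested with edgeR 4.0.16 (TMM, filterByExpr, quasi-likelihood, Benjamini-Hochberg over all genes tested, threshold 0.05, prior count 2) in R 4.3.3; set comparisons carried the mouse as a block. Steps were tested on simulated data. DESeq2 1.42.0, thinning to 2000 UMIs, class II thresholds of 300 (shares only) and 500 (shares and genes), no gene filter, removal of the top 5% of Scrublet scores, a replicate block and leaving out each mouse were alternatives. Shares were compared by exact permutation over mice (scipy 1.17.1) with exact 95% binomial intervals. Doublets were scored, not removed (expected rate 0.06). Named genes were, per comparison, the 6 largest changes per direction among called genes of average log2 CPM of at least 5 whose mice did not overlap or shared a sign, and per list the first 2 tested and up to 3 largest called; exceptions are stated. Replicates were separate mice, with members of a mouse sharing their source.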

Additional observations from a re-analysis of the deposited data

Results flagged for a closer look

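Tumor differences that differed between members and lower-MHCII macrophages by an interaction test (edgeR, mouse as a block) are given here as log2 differences, with no weighing of causes.

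For E0771-Res2 against E0771, the excess in members was 5.82 for Upp1, uridine phosphorylase, where 96% of the counts of E0771-Res2 replicate 1 came from 1 cell. It was 3.39 for AA467197, 3.23 for Cxcl9, 2.65 for Ccl5, 2.52 for Sod2 and 2.46 for Clec4e. For the inflammatory genes Tnf, Il1rn and Il1b it was 1.86, 1.85 and 1.17, and for Cd40 1.96. E0771-Res2 replicate 1 was the only mouse of its line in this fit, and nearly all of its Cxcl9 in members also came from 1 cell. The difference ran the other way for Hspa1a (-2.59) and Ccl7 (-2.46). With all 8 mice the calls held for Upp1 (4.11, adjusted p = 0.000281), AA467197 (2.67, 0.00111), Sod2 (1.75, 0.00859), Ccl5 (1.55, 0.0475) and Hspa1a (-2.67, 8.7e-06), and not for Cxcl9 (1.31, 0.338), Clec4e (1.501, 0.127), Tnf (0.88, 0.700), Il1rn (0.84, 0.732), Il1b (0.88, 0.373), Cd40 (1.05, 0.627) or Ccl7 (-1.70, 0.0601). Without E0771 replicate 1 the adjusted p rose to 0.14 for Hspa1a, 0.09 for Ccl7, 0.16 for Cd40 and 0.09 for Il1b.

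For E0771-Res1 against E0771, the excess in members was 4.30 for Gzmc, 2.13 for Lpl, 1.96 for Rin2, 1.53 for Ccl5, 1.43 for Ccl4 and 1.26 for Bcl2a1a, a gene with near-identical copies; Hspa1a gave -2.13. With all mice the calls held for Gzmc (4.17, 0.00274), Lpl (1.91, 0.0161) and Hspa1a (-2.19, 8.08e-05), and not for Rin2 (1.95, 0.0985), Ccl5 (1.104, 0.727), Ccl4 (1.1, 0.262) or Bcl2a1a (1.20, 0.185). Gzmc, a granzyme of lymphocytes, fell to 1.62 (0.99) without E0771 replicate 3, and Hspa1a to -1.55 (0.10) without E0771 replicate 1. Without a mouse, calls were also lost for Rin2 (0.32 without E0771 replicate 1, 0.085 without E0771-Res1 replicate 3, 0.14 without E0771-Res2 replicate 1), Ccl5 (0.057 without E0771 replicate 3, 0.14 without E0771-Res2 replicate 1) and Bcl2a1a (0.52 without E0771 replicate 1, 0.13 without E0771-Res1 replicate 1, 0.11 without E0771-Res2 replicate 1).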

How the results depend on the processing

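Small numbers limit these results: E0771-Res2 entered the tumor fits with 1 mouse of 11 members, no share comparison of 2 against 3 mice could reach p under 0.1, and low genes rested on a few cells. The mm10 counts cover 3′ ends, so splice forms were not seen.

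The E0771-Res1 share difference of kept cells (-0.0866 points) turned to 0.388 after thinning, 0.421 after thinning with 2 or more C1qa UMIs (chosen after seeing the data), 0.135 at a threshold of 300 and 0.108 at 500. Leaving out each mouse gave -0.605 to 0.688; other kept-cell shares ran from -1.68 to -0.890 (resistant), -2.75 to -2.05 (E0771-Res2 against E0771) and -3.08 to -1.79 (between lines), and gated shares from -10.6 to -6.98, -6.03 to -0.139, -15.1 to -12.2 and -13.5 to -7.64 in the order resistant, E0771-Res1, E0771-Res2 and between lines.

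Counts of calls moved as follows. DESeq2 called 5 (E0771-Res1), 7 (E0771-Res2), 0 (between lines; 71 at an unadjusted p under 0.05), 7 (resistant), 97 (lower-MHCII), 84 (Folr2+), 4 and 0 (interactions of E0771-Res2 and E0771-Res1). Without a gene filter the tumor counts were 40, 40, 34 and 43 in that order, from 14, 13, 8 and 13, and the interactions 31 and 25. Thinning gave 5, 2, 5 and 2, then 70, 22 and 121 for the lower-MHCII, Folr2+ and Cd209a+ comparisons, and 2 and 2. A threshold of 500 gave 42 for E0771-Res1, 24, 149 and 123 for the sets and 20 for its interaction; it could not be fitted for E0771-Res2. Removing the highest Scrublet scores gave 8 for E0771-Res2, 4 between lines and 16 for the E0771-Res1 interaction. With at least 3 cells per mouse counts were 2, 0, 2 and 0, 301 and 446, and 9 and 3; summing all gated macrophages gave 46, 176, 293 and 78 (both added after seeing the data). Leaving out each mouse gave 5 to 30, 10 to 36, 11 to 28 and 13 to 33 for tumors, 93 to 157, 55 to 299 and 258 to 336 for sets, and 21 to 31 and 4 to 29 for interactions. E0771-Res2 replicate 1, the only mouse of its line in the 5-mouse fits, could not be left out where E0771-Res2 is compared.

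Replicate numbers are shared between lines but do not pair mice: deviations of same-numbered mice correlated at -0.070 to 0.159. The replicate block called 38, 27, 27 and 39 genes, including all 14, 13, 8 and 13 called without it. With 5 mice over 3 lines, the added replicate term left little from which to estimate spread, so its larger counts are not added support. Without the mouse block the sets gave 62 (lower-MHCII) and 206 (Cd209a+) calls.

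Single-gene signs turned for H2-K1 against lower-MHCII macrophages (-0.11 thinned, -0.15 with at least 3 cells, -0.041 to 0.074 leaving out mice), C1qb (0.049 at 500), Plac8 in E0771-Res1 (0.29 at 500) and Ciita in E0771-Res1 (-0.36 to 0.50) and E0771-Res2 (-0.71 to 0.050 leaving out mice). The Plac8 value at 500 had a single E0771 mouse, replicate 1. Over the genes named, 1688 values kept direction and call, 313 lost the call, 2 gained it and 9 turned sign; the cause was not tested.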
